A study of Mus musculus with 11 samples.

Results

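The genes described here are 32 postsynaptic scaffold and synaptic adhesion genes, among 32531 genes counted in every library. They were chosen by symbol, from a list of families, with earlier results of these data known. The scaffold genes number 17 and the adhesion genes 15. Scaffold genes of excitatory synapses were Dlg1 to Dlg4, Dlgap1 to Dlgap4, Shank1 to Shank3, Homer1 to Homer3, Magi1 and Magi2, and Gphn was the scaffold gene of inhibitory synapses. Adhesion genes were Nlgn1 to Nlgn3, Nrxn2, Nrxn3, Lrrtm1 to Lrrtm4, Cadm1 to Cadm3, Cntnap1, Cntnap2 and Il1rapl1. All 32 were found in the count tables and passed the filter on low counts.

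The libraries came from adult Glt25d2-EGFP/Rpl10a mice (label Glt25d2-TRAP DU9), in which an EGFP-tagged ribosomal protein is driven by regulatory DNA of Glt25d2, the gene now named Colgalt2, known for its activity in layer 5 pyramidal neurons. Every animal carried this transgene, in a study of short-access intravenous self-administration. RNA on tagged ribosomes was pulled down with anti-EGFP antibodies, giving 3 immunopurified (IP) libraries from cocaine self-administration, 3 from yoked controls and 3 from saline self-administration. There was also 1 saline input library, made before the pull-down, and 1 cocaine unbound library, made of what the pull-down left behind. The labels name the cerebral cortex as tissue while the extraction text names the striatum. The sources used here do not say what the yoked mice received or whether a library is 1 animal or a pool. The p-values therefore measure the spread between these libraries, which may be technical.

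At an excitatory synapse the Dlg proteins hold glutamate receptors and adhesion molecules through their PDZ domains. Dlgap proteins tie the Dlg layer to Shank, and Homer ties Shank to metabotropic glutamate receptors and to intracellular calcium stores. Neurexins on the axon side bind neuroligins and Lrrtm proteins on the dendrite side, and gephyrin, the product of Gphn, anchors glycine and GABA receptors at inhibitory synapses. Cocaine is known to change glutamate synapses in cortex and striatum.

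Several of these proteins meet through their last residues, which PDZ domains grip. The coding ends of 12 members are shown because they carry links of adhesion proteins to scaffold proteins, and of the Dlgap to the Shank layer. Neuroligin ends bind Dlg proteins, and Dlgap ends bind Shank. Neurexin and Cadm ends bind the scaffold Cask, whose gene is not among the members. Each line gives the end of the coding sequence of the principal transcript with its stop codon, 5′ to 3′ along the gene, as GENCODE M21 places it on the mm10 genome. Capitals mark the last 4 codons before the stop codon.
Nlgn1: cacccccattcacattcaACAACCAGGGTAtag
Nlgn2: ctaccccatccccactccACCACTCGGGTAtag
Nlgn3: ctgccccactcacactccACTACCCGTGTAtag
Nrxn2: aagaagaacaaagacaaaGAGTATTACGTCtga
Nrxn3: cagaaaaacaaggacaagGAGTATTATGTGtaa
Cadm1: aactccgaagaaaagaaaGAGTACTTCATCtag
Cadm2: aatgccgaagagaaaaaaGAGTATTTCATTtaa
Cadm3: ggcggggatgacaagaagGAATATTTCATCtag
Dlgap1: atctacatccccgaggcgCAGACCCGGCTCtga
Dlgap2: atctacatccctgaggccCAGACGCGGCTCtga
Dlgap3: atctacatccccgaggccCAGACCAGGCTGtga
Dlgap4: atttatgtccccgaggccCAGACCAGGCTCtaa

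The coding bases shown, without the stop codon, lie at chr3:25433641-25433670 on the minus strand for Nlgn1, chr11:69825206-69825235 on the minus strand for Nlgn2 and chrX:101320230-101320259 on the plus strand for Nlgn3. Those of the neurexins lie on the plus strand at chr19:6532116-6532145 for Nrxn2 and chr12:90332378-90332407 for Nrxn3. Those of the Cadm genes lie at chr9:47850358-47850387 on the plus strand for Cadm1, and on the minus strand at chr16:66663096-66663125 for Cadm2 and chr1:173337024-173337053 for Cadm3. The Dlgap ends lie on the plus strand at chr17:70818202-70818231 for Dlgap1, chr8:14846676-14846705 for Dlgap2, chr4:127236336-127236365 for Dlgap3 and chr2:156762871-156762900 for Dlgap4. The counts are sums over all exons of a gene and do not tell which transcript, with which end, was read.

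Libraries held 20926712 to 53862653 gene counts, and the 32 genes together took 0.392% (cocaine IP library 1) to 0.625% (unbound) of them. The 3 IP libraries numbered 1, 1 from each treatment, stood apart from the 6 numbered 2 or 3. Summed over 11 markers fixed for layer 5 pyramidal neurons, they held 1109 (cocaine), 1158 (yoked) and 1320 (saline) CPM (counts scaled for library depth), against 640.4 to 812 CPM in the other 6 IP libraries and 665 CPM in the input. Astrocyte markers summed to 990 to 1402 CPM in the libraries numbered 1, against 2327 to 2916 CPM in the other IP libraries, and 8 nuclear noncoding RNAs to 211 to 422 CPM, against 2431 to 7499 CPM. Markers of striatal projection neurons summed to 348 to 423 CPM in the libraries numbered 1 and 545 to 661 CPM in the others. No marker was at 0 counts in any library. Each number carried the same index sequence in all 3 treatments, and each treatment's IP libraries shared a sequencing lane of their own, so lane and treatment cannot be told apart.

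All CPM of single libraries below are scaled by TMM over the 11 libraries. Per kb of exon, the level at the median of the 9 IP libraries was highest for Dlg2 (45.0 CPM per kb), Cadm3 (41.5), Dlgap1 (40.8) and Cadm2 (40.0), followed by Shank1 (33.4) and Dlg3 (31.8). Over the 9 libraries Dlg2 spanned 21.0 to 48.8 CPM per kb, which overlapped the range of Cadm3 (38.5 to 46.6 CPM per kb), while Dlg3 (24.0 to 37.2 CPM per kb) lay wholly below Cadm3. Homer1 (26.5 CPM per kb), Dlg4 (26.3) and Gphn (23.5) came next. At the low end stood Nrxn2 (5.43 CPM per kb), Il1rapl1 (1.30) and Homer3 (0.110), and Homer3 was read with only 5 to 33 counts in a library. Exons shared with another gene make up 41.2% of the exon bases of Nlgn3 and 25.4% of those of Homer3, so their counts are uncertain. A scaffold and an adhesion gene were the 2 highest, and the next genes after Cadm2 in this order, down to Dlgap4 (19.2 CPM per kb), were all scaffold genes.

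The libraries numbered 1 held less RNA of excitatory scaffold genes than those numbered 2 and 3 in all 3 treatments. Of the 17 scaffold genes, 12 were lower in the libraries numbered 1 and 0 higher (edgeR, adjusted p under 0.05), while 27.7% of the 16417 genes tested were lower and 27.6% higher (55.3% either way). Their median log2 fold change was -0.52, against 0.01 over all genes tested. The 12 were Dlg1, Dlg2, Dlg3, Dlgap2, Dlgap3, Shank1, Shank2, Shank3, Homer1, Homer2, Magi1 and Magi2. Over both roles, 7 members had an unadjusted p under 0.05 with a higher level and 13 with a lower one, beside 60.4% of all genes. In bulk libraries such as these, fewer cells of a type, less RNA per cell and a difference in the pull-down cannot be told apart.

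Homer2, which links metabotropic glutamate receptors to Shank, lies on mm10 at chr7:81600481-81707527 on the minus strand. Its level was 51.4, 87.8 and 87.2 CPM in the libraries numbered 1 of cocaine, yoked and saline mice, against 234, 263 and 247 CPM in those numbered 2 and 152, 289 and 244 CPM in those numbered 3. The highest library numbered 1 thus lay well below the lowest of the other 6. The log2 fold change was -1.68 ± 0.13 (SE; edgeR adjusted p = 1.92e-07).

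Shank3, a scaffold that joins the Dlgap layer to Homer and actin, lies at chr15:89499623-89560261 on the plus strand. It had 24.9, 42.3 and 31.9 CPM in the libraries numbered 1 of cocaine, yoked and saline mice, against 52.3, 52.2 and 51.4 CPM in those numbered 2 and 53.7, 61.5 and 59.7 CPM in those numbered 3. Its groups did not overlap, and it fell by 0.76 ± 0.12 on the log2 scale (SE; edgeR adjusted p = 0.000128). Shank1, at chr7:44310253-44360572 on the plus strand, had 139, 335 and 258 CPM in the libraries numbered 1, against 352, 405 and 397 CPM in those numbered 2 and 343, 408 and 422 CPM in those numbered 3. Cocaine library 1 was the lowest by far, and yoked library 1 came close to the lowest of the other 6. Shank1 fell by 0.73 ± 0.15 (SE; edgeR adjusted p = 0.00089).

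Magi2, a scaffold of inverted domain order that binds Dlgap proteins and neuroligins, had 79.5, 122 and 115 CPM in the libraries numbered 1, against 169, 169.7 and 167 CPM in those numbered 2 and 175, 165 and 155 CPM in those numbered 3. It fell by 0.67 ± 0.13 (SE; edgeR adjusted p = 0.000412), with no overlap. Shank2 had 37.4, 67.5 and 59.2 CPM in the libraries numbered 1, against 71.8, 77.7 and 80.0 CPM in those numbered 2 and 71.1, 90.5 and 99.7 CPM in those numbered 3, again with no overlap. Homer1, the best known of its family, had 222, 256 and 293 CPM in the libraries numbered 1, against 342, 320.3 and 339 CPM in those numbered 2 and 315, 368 and 317 CPM in those numbered 3. Its log2 fold change was -0.38 ± 0.11 (SE; edgeR adjusted p = 0.00797).

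The other called scaffold genes lay between -0.67 (Dlgap2) and -0.29 (Magi1). Dlg2, which holds receptors at the synapse as Dlg4 does, had 341, 602 and 562 CPM in the libraries numbered 1, against 757, 732 and 763 CPM in those numbered 2 and 657, 794 and 770.0 CPM in those numbered 3. Its cocaine library 1 was far below the rest, and its log2 fold change was -0.60 ± 0.13 (SE; edgeR adjusted p = 0.00127), a call that was lost with the correction for exon length described below.

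Not every scaffold gene took part. Dlg4, whose protein is the most abundant scaffold of the postsynaptic density, had 311, 340.2 and 343 CPM in the libraries numbered 1, against 352, 334 and 353 CPM in those numbered 2 and 349, 365 and 417 CPM in those numbered 3. The groups overlapped, and the log2 fold change of -0.12 did not pass the test (edgeR adjusted p = 0.295). Gphn had 94.9, 98.5 and 84.9 CPM in the libraries numbered 1, against 96.4, 88.0 and 85.6 CPM in those numbered 2 and 102, 81.1 and 81.9 CPM in those numbered 3. Its log2 fold change was 0.06 (edgeR adjusted p = 0.644). Dlgap1 (0.15) and Dlgap4 (-0.16) did not pass either, and Homer3 missed the threshold at -1.21 ± 0.50 (SE; edgeR adjusted p = 0.0503). With Homer3, 13 scaffold genes had every library numbered 1 below all 6 others, as had 24.1% of all genes tested.

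**Figure D1:**
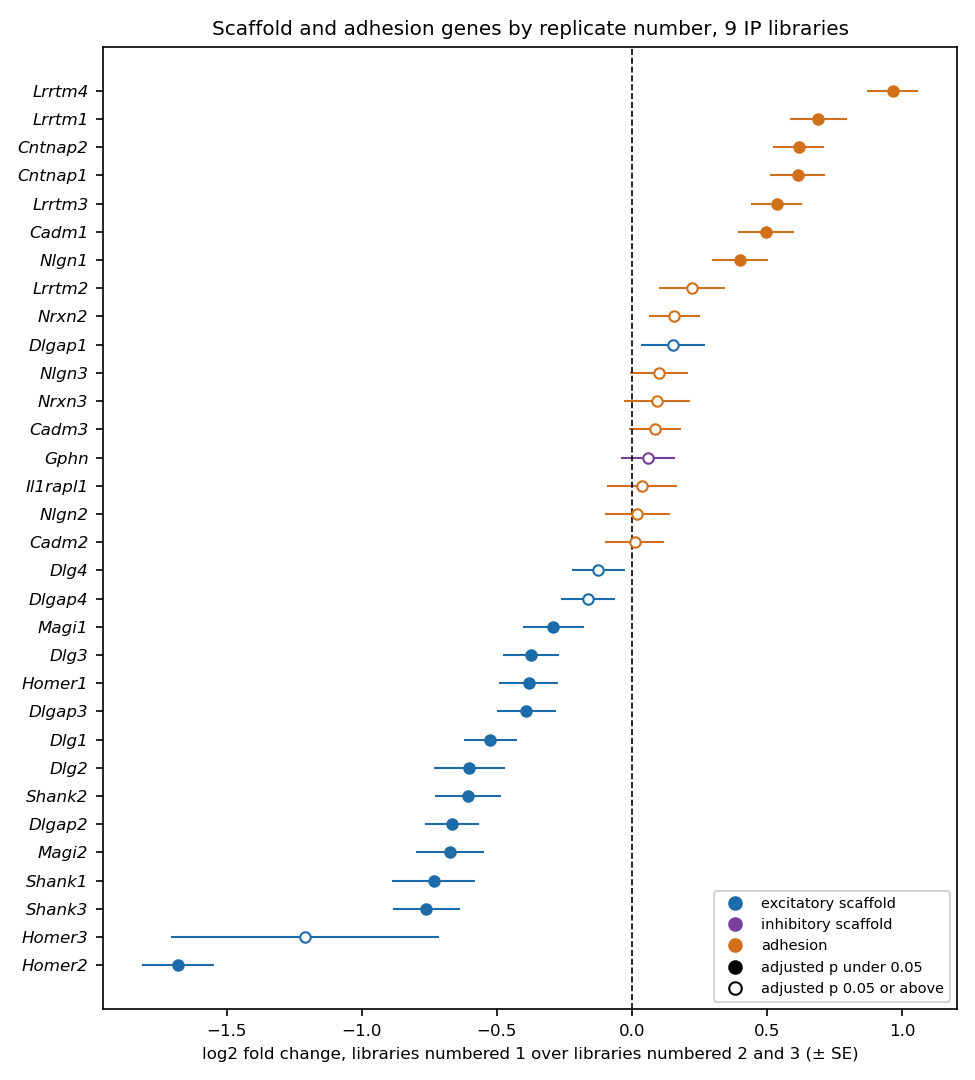
Log2 fold change (x axis, edgeR) of the 32 genes (rows), 3 IP libraries numbered 1 against the 6 numbered 2 and 3. Bars show 1 standard error, computed from the fold change and the F statistic of its test. Scaffold genes run down to -1.68 (Homer2) and adhesion genes up to 0.97 (Lrrtm4), and filled points mark the genes past an adjusted p of 0.05.

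Of the 15 adhesion genes, 7 were higher in the libraries numbered 1 and 0 lower, beside 27.6% of all genes higher and 27.7% lower, with a median log2 fold change of 0.22. The other 8 did not pass the test. The 7 were Lrrtm1, Lrrtm3, Lrrtm4, Cntnap1, Cntnap2, Cadm1 and Nlgn1, and all but Nlgn1 had every library numbered 1 above the 6 others, as had 22.4% of all genes tested. All 15 fold changes were above 0 with TMM scaling, where 49.2% of all genes were below 0, but Cadm2 (-0.011) and Nlgn2 (-0.0014) were below 0 with DESeq2. For scaffold genes, 15 of 17 were below 0.

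Lrrtm4, a postsynaptic partner of neurexins and heparan sulfate proteoglycans, had 84.4, 76.9 and 89.6 CPM in the libraries numbered 1 of cocaine, yoked and saline mice, against 46.2, 42.3 and 45.0 CPM in those numbered 2 and 38.3, 40.3 and 44.9 CPM in those numbered 3. The means were 83.7 ± 6.39 CPM (SD, n = 3) and 42.8 ± 3.08 CPM (SD, n = 6), so the gap was several times the spread within either set. The log2 fold change was 0.97 ± 0.09 (SE; edgeR adjusted p = 1.23e-06). It lies at chr6:80018877-80810143 on the plus strand, and 25.1% of its exon bases also belong to Gm4409, so its reads are uncertain.

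Lrrtm1, also a neurexin partner, had 42.4, 39.9 and 35.6 CPM in the libraries numbered 1, against 23.5, 26.9 and 24.2 CPM in those numbered 2 and 24.3, 23.0 and 24.2 CPM in those numbered 3. Its log2 fold change was 0.69 ± 0.11 (SE; edgeR adjusted p = 7.39e-05). Lrrtm3 had 71.3, 61.2 and 65.3 CPM in the libraries numbered 1, against 47.6, 43.7 and 46.4 CPM in those numbered 2 and 49.9, 40.1 and 45.0 CPM in those numbered 3. The groups of both genes lay apart, and in both the cocaine library was the highest of the libraries numbered 1.

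Cntnap2, whose protein gathers potassium channels beside the node of Ranvier and at synapses, had 81.2, 95.1 and 83.3 CPM in the libraries numbered 1, against 55.8, 60.2 and 60.6 CPM in those numbered 2 and 52.7, 54.4 and 54.7 CPM in those numbered 3. Its log2 fold change was 0.62 ± 0.09 (SE; edgeR adjusted p = 7.79e-05), and the gene lies at chr6:45059357-47304213 on the plus strand. Cntnap1, the paranodal member of the family, had 65.7, 92.0 and 82.9 CPM in the libraries numbered 1, against 48.5, 54.9 and 48.0 CPM in those numbered 2 and 48.9, 54.3 and 58.0 CPM in those numbered 3. It was higher by 0.61 ± 0.10 on the log2 scale (SE; edgeR adjusted p = 0.000141). Neither gene's groups overlapped.

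Cadm1, a homophilic adhesion molecule found on both sides of the synapse, had 153, 175 and 207 CPM in the libraries numbered 1, against 123, 123 and 143 CPM in those numbered 2 and 106, 139.9 and 121 CPM in those numbered 3. It was higher by 0.50 ± 0.10 (SE; edgeR adjusted p = 0.000934), while Cadm2 (0.01) and Cadm3 (0.09) did not pass the test. Nlgn1, the neuroligin of excitatory synapses, had 90.3, 126 and 137 CPM in the libraries numbered 1, against 85.3, 86.2 and 87.7 CPM in those numbered 2 and 78.6, 95.0 and 96.3 CPM in those numbered 3. Its cocaine library 1 overlapped the others, and the log2 fold change was 0.40 ± 0.10 (SE; edgeR adjusted p = 0.00469). Nlgn2, the neuroligin of inhibitory synapses, had 80.9, 131 and 130.3 CPM in the libraries numbered 1, against 106, 110.2 and 106 CPM in those numbered 2 and 109, 115 and 119 CPM in those numbered 3. Cocaine library 1 was the lowest of the 9 while the yoked and saline libraries numbered 1 were the 2 highest, and the log2 fold change was 0.02 (edgeR adjusted p = 0.901).

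**Figure D2:**
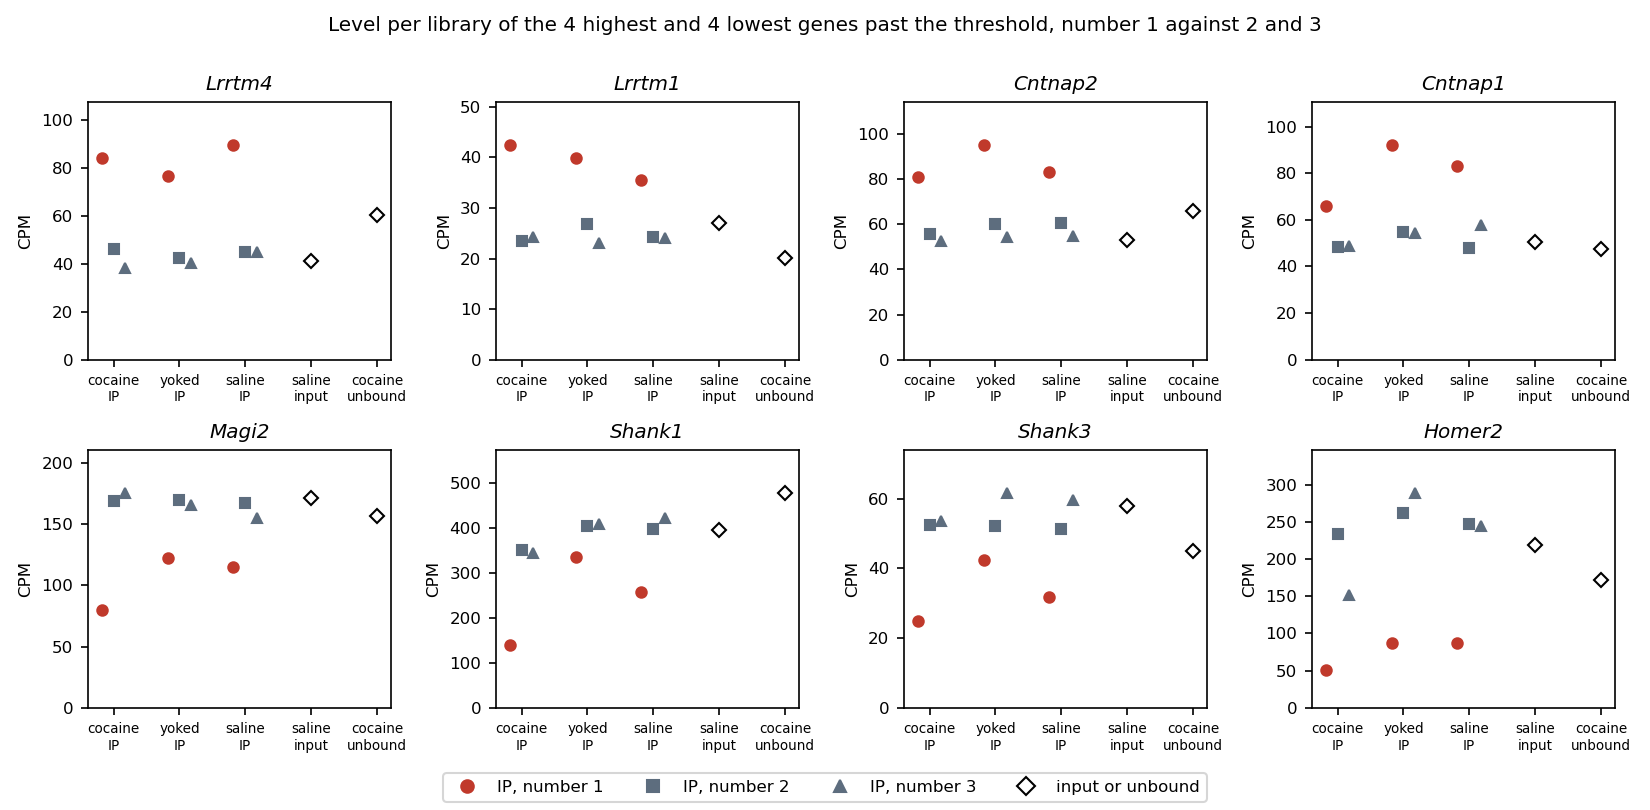
Level (y axis, CPM scaled by TMM over 11 libraries) of the 4 highest and 4 lowest genes past the threshold in each of the 11 libraries, 1 point per library, by group and replicate number. Homer2 stands at 51.4 to 87.8 CPM in the 3 libraries numbered 1, below the other 6 IP libraries, and Lrrtm4 at 76.9 to 89.6 CPM, above them.

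Summed over each role, the libraries numbered 1 held 65.8 (cocaine), 61.1 (yoked) and 63.0 (saline) CPM of adhesion genes per 100 CPM of scaffold genes. The other IP libraries held 41.7 and 41.7 (cocaine), 45.1 and 41.1 (yoked) and 41.0 and 41.5 (saline), the input 40.0 and the unbound library 51.3. The sets of numbered libraries did not overlap, and the 6 libraries numbered 2 and 3 lay close to the input.

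**Figure D3:**
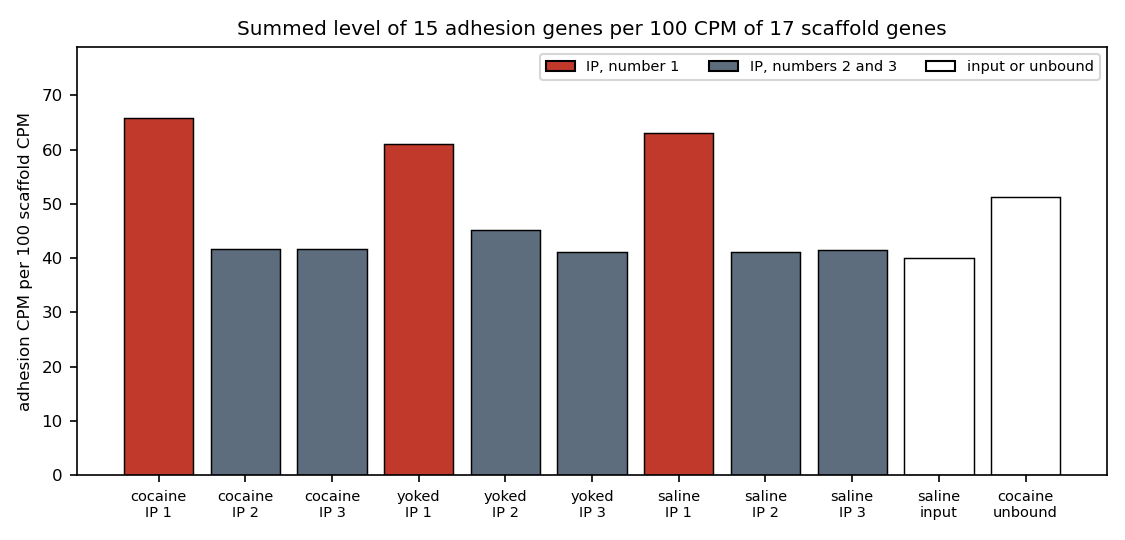
Summed CPM of the 15 adhesion genes per 100 CPM of the 17 scaffold genes (y axis), 1 bar for each of the 11 libraries. The 3 IP libraries numbered 1 lie at 61.1 to 65.8, above the 6 other IP libraries at 41.0 to 45.1.

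Beside these counts, 10 of the 11 layer 5 markers were higher in the libraries numbered 1 (median log2 fold change 0.80). Of the markers of other cells, 8 of 10 astrocyte, 8 of 10 oligodendrocyte, 9 of 10 interneuron, 6 of 10 microglia, 5 of 6 oligodendrocyte precursor, 5 of 10 striatal projection neuron genes and 8 of 10 genes of layers 2 to 4 and 6 were lower, as were 7 of 8 nuclear noncoding RNAs (median -3.94). Endothelial and mural markers did not follow, with 5 of 10 higher and 2 lower (median 0.52), and 1 gene each of the interneuron, oligodendrocyte precursor, striatal and layers 2 to 4 and 6 lists was higher. Their part in the scaffold and adhesion values was not tested. Without cocaine library 1, 11 adhesion genes were higher (the 7 above with Nlgn2, Nlgn3, Nrxn3 and Lrrtm2), as was Dlgap1, and 11 scaffold genes were lower, against 23.9% of genes higher and 24.9% lower.

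The members are long genes, with a median of 9.58 kb of exon against 4.43 kb over the tested genes that have an annotated length. With the trend of fold change on exon length removed, 16 members were higher in the libraries numbered 1 (14 adhesion genes, Dlg4 and Dlgap1) and 9 lower, all scaffold genes, against 27.8% higher and 25% lower of the genes with a length. The medians were then -0.28 for scaffold and 0.49 for adhesion genes. Dlg4 changed sign to 0.28 (edgeR adjusted p = 0.00891), and Homer1 was at -0.01 (edgeR adjusted p = 0.919). Dlg1, Dlg2 and Magi1 also no longer passed the test, and Homer3 did. Across genes, Spearman's rho of fold change with exon length was -0.34 over all genes with a length and -0.17 over the members, as a description.

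Lists of further genes of the same functions were read in the same comparison. Of 51 other synaptic adhesion genes tested, 18 were higher and 4 lower (median log2 fold change 0.23), beside 27.6% of all genes higher and 27.7% lower. Icam5, a dendritic adhesion molecule of the telencephalon, was highest at 1.11 ± 0.14 (SE), followed by Clstn3 (1.10 ± 0.09) and Nptn (0.77). Clstn2 (-1.26 ± 0.11), Flrt2 (-0.71) and Flrt1 (-0.69) were lowest. Of 38 other scaffold and signalling genes, 4 were higher and 15 lower (median -0.20), beside the same shares of all genes. Lin7b (1.06 ± 0.18), Mpp3 (0.58) and Pick1 (0.54) were highest, and Lin7c (-0.99 ± 0.12), Sptbn1 (-0.89) and Lzts3 (-0.84) lowest. Lin7b and Lin7c, close relatives that bind Cask, thus stood at opposite ends of that list.

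Between the libraries numbered 3 and 2, 0 members and 0 genes passed the test in edgeR, where 1.95% of genes had an unadjusted p under 0.05. DESeq2 called 44 of 23572 genes, 0 of them members. Of the 16417 genes tested in edgeR, DESeq2 called 9. Every library numbered 3 lay above every one numbered 2 in 5 members and below in 1, beside 4.78% and 4.17% of all genes.

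Cocaine self-administration was set against saline self-administration to ask how these genes differ after cocaine intake. No member passed the test, nor did any of the 16417 genes (0% called, 1.02% with an unadjusted p under 0.05, 0 members among them). Fitted fold changes were below 0 for 28 of the 32 members, against 46.6% of all genes, with a median of -0.18 for the members and 0.03 over all genes. Without 1 library the members' median ran from -0.23 to -0.09. That of the scaffold genes ran from -0.26 to 0.05, and that of the adhesion genes from -0.28 to -0.04. The 3 lowest were Homer2 (-0.39 ± 0.63, SE), Shank2 (-0.39 ± 0.29) and Homer3 (-0.37 ± 0.64), and the standard errors are large beside these values. Their spread follows the replicate number: Homer2 averaged 146 ± 91.6 CPM in cocaine libraries and 193 ± 91.6 CPM in saline libraries (SD, n = 3 each). Homer3 had 0.243, 0.379 and 0.636 CPM in cocaine libraries, against 0.291, 0.652 and 0.712 CPM in saline libraries, and these overlap.

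Gphn was the highest member at 0.24 ± 0.14 (SE; edgeR adjusted p = 0.9998). Its 3 cocaine libraries, at 94.9, 96.4 and 102 CPM, all lay above the 3 saline libraries at 84.9, 85.6 and 81.9 CPM, and yoked libraries lay between and across them. It was the only member with every cocaine library above every saline library, as in 3.11% of all genes. Lrrtm3 (0.12 ± 0.25, SE) and Lrrtm1 (0.12 ± 0.31) followed, and their libraries overlapped. The opposite order, every cocaine library below every saline library, was seen in Dlgap1, Il1rapl1, Nrxn2 and Nrxn3, against 2.28% of all genes. Dlgap1, the Shank-binding partner of Dlg4, had 616, 666 and 694 CPM in cocaine libraries, against 929.8, 830.4 and 729 CPM in saline libraries. The presynaptic organiser Nrxn3 had 159, 192 and 201 CPM in cocaine libraries, against 236, 208 and 224 CPM in saline libraries, and its family member Nrxn2 had 72.4, 68.3 and 68.9 CPM in cocaine libraries, against 88.0, 75.0 and 80.2 CPM in saline libraries.

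Within replicate numbers, 19 of the 32 members were lower in the cocaine than in the saline library at every number, as were 16.6% of all genes, and 2 (Gphn and Lrrtm3) were higher at every number, as were 18.8%. The median log2 ratio of the members was -0.35 at number 1, -0.05 at number 2 and -0.11 at number 3. The shift was thus largest at number 1, where yoked over saline had a median of 0.07. Over the saline input, the median of 31 members was -0.26 in cocaine library 1, the lowest of the 9 IP libraries. It was 0.15 in saline library 1 and 0.19 in yoked library 1, so the shift at number 1 lay with cocaine library 1. That library also had the largest share of alignments that were not unique (47.0%), whose part was not tested. Dlgap2, which had 65.4, 109.9 and 105 CPM in cocaine libraries against 79.2, 132 and 130.5 CPM in saline libraries, was nearly even over the numbers at -0.25, -0.27 and -0.27. With the replicate number as a block, 0 members passed (lowest edgeR adjusted p = 0.377), and 8 had an unadjusted p under 0.05, beside 12.3% of all genes. In that fit the standard errors of Homer2 and Shank2 were smaller, at -0.48 ± 0.14 and -0.41 ± 0.14 (SE; edgeR adjusted p = 0.377 for both). Homer3 was at -0.35 ± 0.54 (SE; edgeR adjusted p = 0.815). Without the libraries numbered 1, with or without the block, 0 members passed. Of the other adhesion genes 42 of 51 lay below 0 (median -0.13), and of the other scaffold genes 25 of 38 (median -0.07), none past the test.

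Cocaine was also set against yoked controls. Again 0 members and 0 genes passed (0% called, 1.11% with an unadjusted p under 0.05). Fitted fold changes were below 0 for 27 of 32 members, against 48.5% of all genes, with a median of -0.16. Without 1 library the members' median ran from -0.23 to -0.11. That of the scaffold genes ran from -0.27 to 0.03, and that of the adhesion genes from -0.28 to -0.04. Homer2 (-0.53 ± 0.63, SE), Shank1 (-0.45 ± 0.34) and Il1rapl1 (-0.38 ± 0.16) were lowest, and Lrrtm3 (0.24 ± 0.25), Gphn (0.15 ± 0.14) and Dlg3 (0.11 ± 0.20) highest. The cocaine and yoked comparisons share the cocaine libraries with those above, so their directions are not separate evidence.

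Il1rapl1, a postsynaptic partner of the receptor phosphatase Ptprd, had 10.46, 11.6 and 10.01 CPM in cocaine libraries, against 14.3, 12.2 and 15.7 CPM in yoked libraries and 13.8, 11.97 and 13.6 CPM in saline libraries. Against yoked controls it was the only member with an unadjusted p under 0.05 in edgeR's quasi-likelihood test, and its adjusted p was 0.972. Cadm2 had 285, 364 and 324 CPM in cocaine libraries, against 423, 427 and 407 CPM in yoked libraries and 454, 393 and 363 CPM in saline libraries. Together with Nlgn3, Nrxn2 and Cadm3, these 5 adhesion genes had every cocaine library below every yoked library, as had 2.55% of all genes, and 0 members had the opposite order. Nlgn3 had 63.7, 72.4 and 72.9 CPM in cocaine libraries, against 94.2, 77.4 and 78.8 CPM in yoked libraries. Cadm3 had 281, 279 and 283 CPM in cocaine libraries, against 338, 301 and 307 CPM in yoked libraries. Nrxn2, at 72.4, 68.3 and 68.9 CPM in cocaine libraries, had 89.5, 74.0 and 80.7 CPM in yoked libraries. Dlg3 had 140.4, 196 and 217 CPM in cocaine libraries and 156, 178 and 186 CPM in yoked libraries, which overlap.

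Lower in cocaine than in yoked at every number were 13 of the 32 members, 9 of the 15 adhesion and 4 of the 17 scaffold genes, against 17.5% of all genes. The members' median log2 ratio was -0.42 at number 1, -0.03 at number 2 and -0.07 at number 3. The ratio at number 1 again rests on cocaine library 1. With the replicate number as a block, 0 members passed, the lowest being Homer2 at -0.59 ± 0.14 (SE; edgeR adjusted p = 0.130), and 9 had an unadjusted p under 0.05, beside 18.3% of all genes. When cocaine library 2 was left out in the blocked fit, Homer2 (-0.84, edgeR adjusted p = 0.00313), Shank1 (-0.73), Shank2 (-0.58) and Dlg2 (-0.51) were lower against yoked, and Homer2 (-0.73, edgeR adjusted p = 0.0108) and Shank2 (-0.58) lower against saline. That fit called 1121 of 16779 genes against yoked and 438 against saline, and these calls were absent with all libraries. Beside this, the nuclear noncoding RNAs summed to 211, 5402 and 2431 CPM in cocaine libraries and to 422, 5916 and 7499 CPM in yoked libraries, and their part in these values was not tested.

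**Figure D4:**
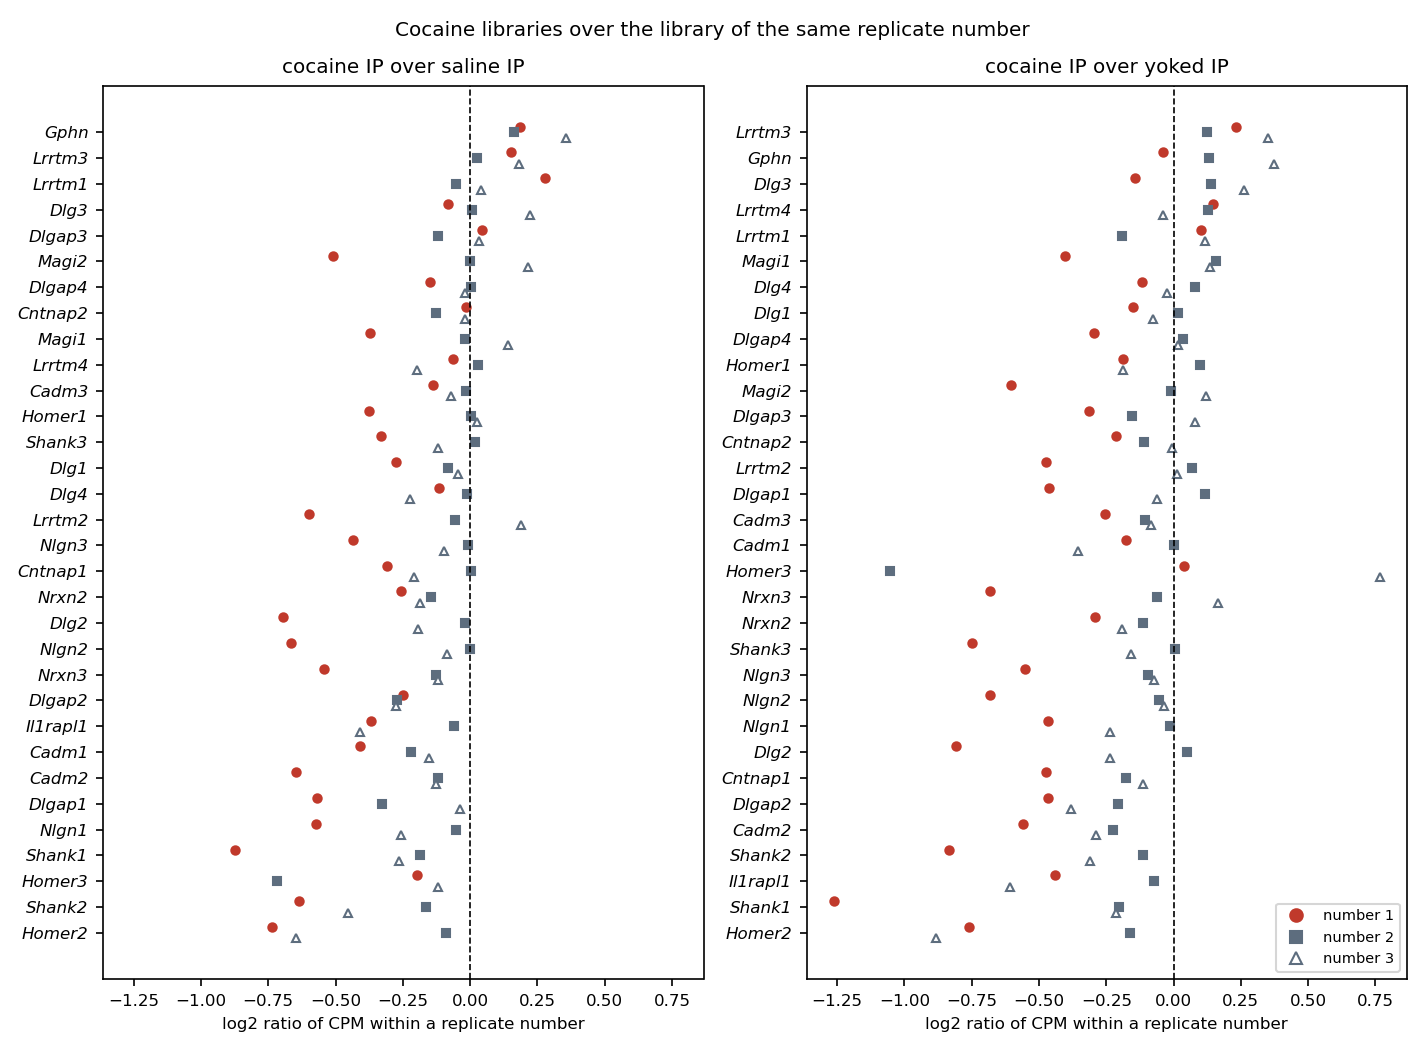
Log2 ratio of CPM (x axis) of cocaine IP libraries over saline IP libraries (left) and over yoked IP libraries (right) of the same replicate number, 1 point per gene (rows) and number. Most points of number 1 lie left of 0, with a median of -0.35 over saline and -0.42 over yoked, while numbers 2 and 3 centre between -0.11 and -0.03.

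Yoked and saline libraries differed least. Again 0 members and 0 genes passed (0% called, 0.402% with an unadjusted p under 0.05). Of the members 18 were above 0 and 14 below, where 49.1% of all genes were below, with a median of 0.01. Homer2 (0.14 ± 0.62, SE), Shank3 (0.12 ± 0.33) and Il1rapl1 (0.10 ± 0.16) were highest, and Homer3 (-0.19 ± 0.64), Dlgap1 (-0.17 ± 0.18) and Lrrtm4 (-0.17 ± 0.41) lowest. Homer3 had 0.237, 0.844 and 0.362 CPM in yoked libraries and 0.291, 0.652 and 0.712 CPM in saline libraries, and Dlgap1 855, 615 and 744 CPM in yoked libraries. In no member were the yoked and saline libraries apart, as they were in 2.14% of all genes with yoked higher and 2.15% with yoked lower. Over the 3 treatments together, 0 members and 0 genes passed, with 0.481% of genes at an unadjusted p under 0.05.

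The saline IP libraries were divided by the saline input to see which members were held by the tagged ribosomes. With 1 input library the call rests on the ratios and asked for a difference of at least 2-fold, the same way, in each of the 3 IP libraries. None of the 31 members with a mean of at least 1 CPM met this; 0.0742% of 13478 genes met it as higher and 0.0445% as lower. An edgeR fit over all 11 libraries, with its spread taken from the groups that have replicates, called 0 members and 0 of 18070 genes (0.587% at an unadjusted p under 0.05). Dlgap1 was above the input in every IP library, at log2 ratios of 0.60, 0.45 and 0.24 in libraries 1 to 3. Cadm1 was at 0.92, 0.40 and 0.14, and Lrrtm4 at 1.12, 0.14 and 0.11, so library 1 gave most of both means (0.48 ± 0.40 and 0.46 ± 0.57, SD, n = 3). The input held 109 CPM of Cadm1 and 41.2 CPM of Lrrtm4.

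At the low end Homer2 was at -1.33, 0.19 and 0.14, Shank3 at -0.86, -0.16 and 0.03, and Dlgap3 at -0.64, -0.15 and -0.05. Dlgap3 had 25.9, 35.9 and 39.0 CPM in the saline IP libraries against 40.2 CPM in the input. Of the 15 adhesion genes, 8 were above the input in all 3 libraries and 0 below in all 3. Of 16 scaffold genes, 1 was above and 5 were below, while 18.9% of all genes were above and 17.6% below. The medians were 0.47, 0.08 and 0.09 for adhesion and -0.40, 0.00 and 0.04 for scaffold genes in libraries 1 to 3, so the difference between the roles was seen in library 1. In the same libraries the layer 5 markers had medians of 0.9998, 0.02 and 0.37 over the input, beside which the part of the pull-down in the members' ratios was not tested.

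**Figure D5:**
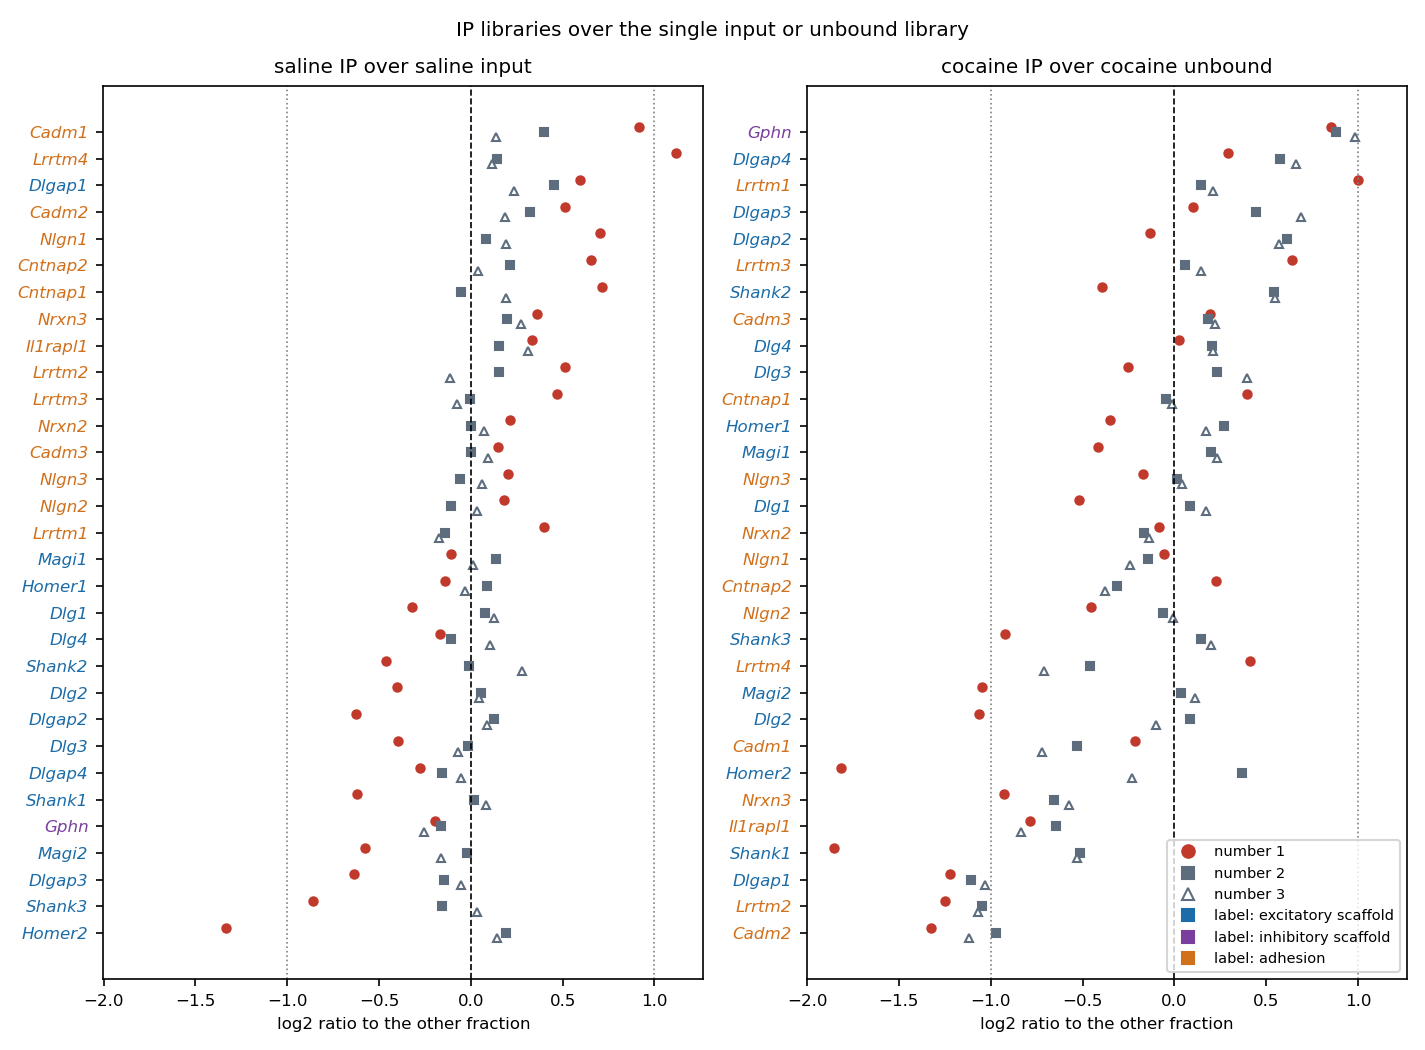
Log2 ratio (x axis) of each saline IP library over the input (left) and each cocaine IP library over the unbound library (right), 1 point per gene (rows) and library, with dotted lines at 2-fold. Dlgap1 and Lrrtm2 lie at or below -1.03 in all 3 cocaine IP libraries over unbound, and Gphn lies between 0.86 and 0.98.

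Cocaine IP libraries were divided by the cocaine unbound library in the same way. The unbound library was read on lane 1, the cocaine IP libraries on lane 2, and it had the fewest gene counts. Of its entries 7.34% were ambiguous between genes, against 1.56% to 1.91% in the other libraries. Alignments that were not unique made up 28.3%, against 35.6% to 47.0%. The part of these differences in the ratios was not tested. Dlgap1 (log2 ratios -1.22, -1.11 and -1.03) and Lrrtm2 (-1.25, -1.05 and -1.07) were at least 2-fold lower in all 3 IP libraries, as were 2.21% of 13527 genes. Dlgap1 had 1365 CPM in the unbound library, and Lrrtm2, a neurexin partner like Lrrtm1, had 67.1, 77.1 and 75.0 CPM in cocaine IP libraries against 152 CPM in the unbound library. Cadm2 was just outside the rule at -1.32, -0.97 and -1.12, with 679 CPM in the unbound library. Both calls were lost when the scaling was taken over all 11 libraries, and an edgeR fit over all 11 called 0 members (10 genes, 0.0553%, with 10.3% at an unadjusted p under 0.05). On the scale of all 11, the saline input, made before the pull-down, was itself at log2 ratios of -1.15 (Dlgap1), -1.07 (Lrrtm2) and -1.10 (Cadm2) over the unbound library. The part of the pull-down in the ratios of the cocaine IP libraries was not tested.

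No member was at least 2-fold higher than the unbound library in all 3, as were 0.399% of genes. Gphn came nearest at 0.86, 0.88 and 0.98, a spread of 0.07 (SD, n = 3) around 0.90, from 94.9, 96.4 and 102 CPM in IP libraries against 49.9 CPM in the unbound library. Dlgap4 was at 0.29, 0.58 and 0.66, from 133, 162 and 169.8 CPM against 104 CPM, and Lrrtm1 at 0.998, 0.15 and 0.21. The saline input was itself at 0.96 (Gphn), 0.81 (Dlgap4) and 0.42 (Lrrtm1) over the unbound library. Dlgap1 and Dlgap4, of the same family, thus lay on opposite sides of the unbound library. Of the adhesion genes 8 of 15 were below it in all 3 libraries and 3 above, and of the scaffold genes 2 of 16 below and 4 above, against 25.7% below and 31.8% above over all genes. Beside these values, the nuclear noncoding RNAs summed to 14708 CPM in the unbound library.

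Promoter windows of RefSeq (250 bases before to 50 after the start of each gene) were matched for 24 members. The cyclic AMP response element TGACGTCA, on either strand, was in 0 of them, against 2.031% of 27025 genes. The AP-1 motif TGACTCA was in 1, that of Cadm3, against 5.946%.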

How the data were processed

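TRAP-seq RNA was counted in 11 libraries. The authors deposited raw counts per gene symbol, which come from STAR 2.0.0e alignments to mm10 and HTSeq, per the submitters' processing notes. For the gene annotation, the strand setting and the HTSeq version, nothing is given in the sources used here; reads of antisense or overlapping genes may thus be included. The 6 special entries stayed out of library sizes and tests, which leaves 44.9% to 52.5% of entries in genes (20926712 to 53862653 counts a library). Counts without molecular identifiers include PCR copies.

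The 9 IP libraries were fitted in edgeR 4.0.16 (R 4.3.3) with TMM, filterByExpr, robust quasi-likelihood tests and Benjamini-Hochberg adjustment over 16417 genes at 0.05. Treatments were compared as group means, and replicate numbers in a fit with treatment added. Standard errors of edgeR fold changes were computed as the size of the fold change over the square root of its F statistic. They thus restate the test and are not a separate measure of spread. Numbers were taken to pair the libraries, since the 9 same-number correlations of deviations from group means ran from 0.376 to 0.794 (different numbers -0.740 to 0.621). The ranges overlap, and only 5 libraries had their 2 best correlations with their own number. Saline library 3 went better with cocaine library 2 (0.525) than with cocaine library 3 (0.376). Pairing of numbers 2 and 3 is therefore uncertain, and the labels do not state pairing. Fraction ratios used TMM over the 4 libraries concerned and a prior count of 2. DESeq2 1.42.0, other scalings and filters, a length correction and left-out libraries were alternatives. Positions, exon lengths and coding ends come from GENCODE M21.

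The members and lists were chosen with earlier results of these data known. The genes named are the 4 highest and 4 lowest called genes by replicate number, the 3 highest and 3 lowest of each other comparison, Dlg4, Homer1, Nlgn2, Gphn and Cntnap2, and genes where a group does not overlap another; some are given by fold change and standard error only. Tests were also checked on simulated data, whose settings and outcome are not reported here.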

Additional observations from a re-analysis of the deposited data

How the results depend on the processing

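With DESeq2's size factors, DESeq2, no filter on low counts or Rn45s left out, every count of called members kept its size to within 1.5 times, and all treatment counts stayed at 0. For number 1 against 2 and 3, removing the length trend gave 16 members higher, 14 of them adhesion genes, and turned Dlg4 to 0.28 and Gphn to -0.041. Leaving out 1 library moved the members higher between 6 and 12, adhesion genes higher between 6 and 11, members lower and scaffold genes lower both between 10 and 12, and all members called between 16 and 23. Nlgn2 there was -0.0035 with DESeq2's size factors, -0.0014 with DESeq2 and -0.018 over genes with a length, and -0.086 to 0.22 without 1 library. Gphn ran from -0.026 to 0.12 without 1 library.

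The replicate block changed no call with all libraries; without cocaine library 2 the blocked fit called 2 members against saline and 4 against yoked. The blocked fits that leave out libraries were chosen after seeing the data. In cocaine against saline, Lrrtm1 was -0.0055 without the libraries numbered 1, -0.0043 without them with the block, and -0.0051 with the length trend removed and the block. Without 1 library it ran from -0.21 to 0.33, Lrrtm3 from -0.082 to 0.32 and Homer2 from -0.93 to 0.016. In yoked against saline, Homer2 ran from -0.21 to 0.51, Shank3 from -0.098 to 0.31, Lrrtm4 from -0.54 to 0.24 and Homer3 from -0.89 to 0.14 without 1 library. In the blocked fit Homer2 was -0.00038 without saline library 2, Shank3 -0.020 without yoked library 1 and Homer3 0.17 without yoked library 3. Dlg3 in cocaine against yoked ran from -0.039 to 0.27 without 1 library and was -0.0031 without cocaine library 3 with the block. No value of these single genes given in this paragraph passed the test, and the cause of each change was not tested.

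Of the members over the unbound library, 0 were called with TMM over 11 libraries, 5 at 1.5-fold (beside 1385 of 13527 genes), 0 with edgeR over 11 libraries, and 2 to 3 without 1 library. Homer3 was read with only 5 to 33 counts in a library.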
